A study of Mus musculus with 2 samples.

Results

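Proliferating T cells were studied in mouse hearts 7 days after myocardial infarction, the death of heart muscle that follows a blocked coronary artery. The members were chosen by measured transcripts: a cell was counted as cycling when it held at least 1 UMI (a unique molecular identifier, that is, 1 counted transcript) summed over Cd3d, Cd3e and Cd3g, the chains of the T cell receptor complex, and at least 4 UMIs summed over Mki67, Top2a, Birc5 and Rrm2. Cells entered with at least 300 genes, 500 UMIs and at most 10% mitochondrial UMIs. This gave 188 of 5352 T cells from anti-PD1 hearts and 160 of 3992 from anti-IgG hearts, 348 of 9344 in all. Non-cycling T cells, the comparison class, had 0 UMIs of the 4 proliferation genes (4488 anti-PD1 and 3313 anti-IgG cells), and the 676 and 519 T cells with 1 to 3 such UMIs were put in neither class.

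Both groups were wild type mice with infarcted hearts, and they differed in the injected antibody: anti-PD1, which is directed at the inhibitory T cell receptor encoded by Pdcd1, or anti-IgG. Droplet-based 3′ single-cell RNA sequencing was used, with 1 library for each antibody. The labels do not say how many animals were pooled, and the antibody dose and injection days are not given in the sources used here. The design text names sorted T cells, whereas the protocols tell of tissue digestion, lysis of red cells and clearing of dead cells, and of no sort. With 1 library per antibody there is no replicate check: no test of the antibody was possible, and every interval below is an exact or approximate 95% interval for counting error only.

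T cells divide after their receptor and costimulatory signals drive them out of quiescence, a resting state kept by factors such as Klf2, Tcf7 and Bach2. Cyclin-dependent kinases then release E2F factors, which switch on the genes for DNA synthesis in S phase, and a later program under MuvB, Foxm1 and B-Myb switches on the genes of G2 and mitosis. In the infarcted heart, regulatory, helper, cytotoxic and gamma-delta T cells are all known to gather, and PD1 is known as a brake on T cell receptor signalling.

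The 4 genes that chose the cells were seen at like levels in both libraries. Mki67, a coat protein of mitotic chromosomes, had 1034 CPM (UMIs of a gene scaled to 1000000 UMIs of all cells of the class) in anti-PD1 and 1068 in anti-IgG cycling cells, and was seen in 183 of 188 and 156 of 160 cells. Top2a, the topoisomerase that untangles replicated DNA, had 737 and 644 CPM. Birc5, the survivin subunit of the chromosomal passenger complex, had 371 CPM in each library, and Rrm2, the regulated subunit of ribonucleotide reductase, had 354 and 336 CPM. The rule fixes that these genes are seen in the members. The median member held 24 anti-PD1 and 22.5 anti-IgG UMIs of the 4 genes, well above the limit of 4. At the limit itself, the 12 and 13 cells with 4 such UMIs had 3120 and 2509 CPM over an S phase list of 42 other genes, and the 37 and 27 T cells with 3 UMIs, which were left out, had 1499 and 2105 CPM. The order was uneven just inside the limit, with 3567 and 1664 CPM in the 8 and 6 cells with 5 UMIs, and 975 and 4001 CPM in the 5 and 8 cells with 6 UMIs, against 904 and 886 CPM in non-cycling cells.

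The promoters of these genes are shown because their transcripts define the cells. Each line below gives the 150 bases before the RefSeq start site, read 5′ to 3′ on the gene's strand, from RefSeq with build GRCm38.p6. Capitals mark TTTGAA, the core letters of the cell cycle homology region bound by MuvB complexes, CCAAT, the letters bound by NF-Y, and the E2F-type letters TTTCGCGC, TTTGGCGC or TTTCCCGC, each on either strand. Ccnb1 and Cdk1, which encode cyclin B1 and its kinase, are added as the pair that drives mitotic entry.
Mki67, chr7:135716380-135716529, minus strand: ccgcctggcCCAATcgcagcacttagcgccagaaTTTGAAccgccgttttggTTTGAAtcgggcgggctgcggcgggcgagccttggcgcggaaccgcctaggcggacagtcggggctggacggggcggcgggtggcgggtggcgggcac
Top2a, chr11:99024190-99024339, minus strand: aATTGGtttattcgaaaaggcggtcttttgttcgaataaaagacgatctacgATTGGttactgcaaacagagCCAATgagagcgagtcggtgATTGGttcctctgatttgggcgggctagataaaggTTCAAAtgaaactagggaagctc
Birc5, chr11:117849087-117849236, plus strand: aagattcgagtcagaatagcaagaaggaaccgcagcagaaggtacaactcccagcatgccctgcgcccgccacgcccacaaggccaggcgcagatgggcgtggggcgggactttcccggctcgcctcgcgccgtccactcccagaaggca
Rrm2, chr12:24708104-24708253, plus strand: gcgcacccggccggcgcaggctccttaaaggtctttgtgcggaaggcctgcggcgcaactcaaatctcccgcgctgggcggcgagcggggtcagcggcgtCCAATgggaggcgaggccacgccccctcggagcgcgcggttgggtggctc
Ccnb1, chr13:100786487-100786636, minus strand: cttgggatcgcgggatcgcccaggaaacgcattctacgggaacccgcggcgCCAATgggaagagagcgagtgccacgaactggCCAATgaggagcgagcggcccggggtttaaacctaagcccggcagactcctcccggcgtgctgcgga
Cdk1, chr10:69352913-69353062, minus strand: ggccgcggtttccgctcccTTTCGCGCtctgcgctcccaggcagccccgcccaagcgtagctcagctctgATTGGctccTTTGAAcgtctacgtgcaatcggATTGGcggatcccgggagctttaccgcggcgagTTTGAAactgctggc

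The printed Mki67, Top2a and Cdk1 stretches hold both TTTGAA and CCAAT letters, Rrm2 and Ccnb1 hold CCAAT letters only, and the Birc5 stretch holds none of the 3. Over the 250 bases before the start, searched on both strands, TTTGAA was found in 38.8% of 49 promoters of 44 of the 51 genes of a G2/M list, against 16.0% of all 32851 promoters. CCAAT was found in 75.5% of the G2/M promoters, against 33.8% of all. The E2F-type letters were found in 27.3% of 33 promoters of 30 of the 42 S phase genes, against 1.53% of all promoters. In 29 promoters of 17 of 20 quiescence genes, the shares were 6.90% for TTTGAA, 24.1% for CCAAT and 3.45% for the E2F-type letters. The letters were not particular to 1 list: CCAAT was also in 66.7% of the S promoters and the E2F-type letters in 6.12% of the G2/M promoters, both above all promoters, and TTTGAA was in 18.2% of the S promoters. A match is a description of the letters, not evidence of a bound site.

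T cell marker levels went with the label of cycling T cells, while some markers of other cell types were also present. Cd3d, Cd3e and Cd3g summed to a median of 26 UMIs in the cycling cells of both libraries, against 9 in anti-PD1 and 10 in anti-IgG non-cycling cells, and 3 and 1 members rested on only 1 or 2 such UMIs. Over 8 T cell markers the level was 3860 CPM in anti-PD1 and 3840 in anti-IgG cycling cells, against 3959 and 4169 CPM in non-cycling cells. S100a8 and S100a9 of neutrophils were at 0 in the cycling cells, and 5 fibroblast markers reached 4.50 and 1.48 CPM. However, 10 macrophage or monocyte markers summed to 1755 and 2190 CPM in cycling cells, against 1032 and 1699 CPM in non-cycling cells. For 5 endothelial markers the sums were 239 and 178 CPM, against 118 and 172 CPM. B cell and dendritic markers had lower sums in cycling cells. The Cd3 genes are part of the rule and make up most of the T cell marker level, so these values are a description. Of the markers outside the rule, Lck, a kinase of receptor signalling, had 519 CPM in anti-PD1 and 482 CPM in anti-IgG cycling cells, against 493 and 507 CPM in non-cycling cells, and Cd2, an adhesion receptor, had 291 CPM in cycling cells of both libraries, against 312 and 314 CPM. A further 7 anti-PD1 and 9 anti-IgG cells passed the proliferation limit without a Cd3 UMI and were not members.

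Transcripts of other cell types were frequent at a low level and abundant in few members. Only 43 of 188 anti-PD1 and 41 of 160 anti-IgG members were left when cells with at least 2 UMIs of other cell types' marker lists were removed, against 2857 of 5352 and 1814 of 3992 T cells. These lists include Ly6c2, which effector T cells are also known to express and which was seen in 112 and 82 members. Of 7 macrophage genes (Lyz2, C1qa, C1qb, C1qc, Adgre1, Csf1r and Cd68), at least 10 UMIs were found in 13 of 188 anti-PD1 cycling cells (6.91%) and 14 of 160 anti-IgG cycling cells (8.75%), against 1.43% and 2.38% of non-cycling cells. Those members held 98.6% and 99.5% of the macrophage UMIs of all members, and the next highest member had 5 and 2 UMIs. They also held Cd3 UMIs, with medians of 35 and 44, and their median UMI totals were 27251 and 23208. With 4 B cell or 4 endothelial genes counted likewise, 21 anti-PD1 (11.2%) and 17 anti-IgG members (10.6%) carried such transcripts, against 3.97% and 3.44% of non-cycling cells. These cells are called mixed here. Of them, 4 and 1 were among the highest Scrublet doublet scores, and what the mixed cells are was not tested. Values that rest on them are given with and without them. Across the libraries 46 kept cells shared a barcode sequence, and 1 member, in the anti-PD1 library, was among them.

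Cycling cells were deeper than resting ones, which bears on every share of cells with a transcript. The membership rule counts UMIs at full depth, which favors deep cells as members and shallow cells as the comparison class. The rule thus fixes this difference in depth in part. The median was 11049.5 UMIs in anti-PD1 and 10437 in anti-IgG cycling cells, against 3651.5 and 3858 in non-cycling cells, a ratio of 3.03 and 2.71. The median number of genes was 3364.5 and 3415, against 1504.5 and 1600. In T cells of neither class, with 1, 2 or 3 UMIs of the rule genes, the median depth rose with that count. It was 4809, 6323 and 9123 UMIs in anti-PD1 hearts, and 5146.5, 5955 and 7419 UMIs in anti-IgG hearts. The cycling cells made up 8.45% of anti-PD1 and 9.77% of anti-IgG T cell UMIs. Ribosomal protein genes took 15.8% and 16.4% of their UMIs, against 22.9% and 24.0% in non-cycling cells. Shares are therefore also given with every cell thinned to 2000 UMIs. For shares by kind and by phase, the cycling cells stayed those chosen at full depth. Only their kind or phase was read again after thinning, so these shares are not corrected for the effect of depth on membership.

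Cycling cells made up 3.51% of T cells in anti-PD1 hearts (95% interval 3.04% to 4.04%, 188 of 5352) and 4.01% in anti-IgG hearts (3.42% to 4.66%, 160 of 3992). The ratio was 0.88 with an interval of 0.71 to 1.08, so no difference in this share was detectable beyond counting error. With every T cell thinned to 2000 UMIs before the limit was applied, the shares were 2.43% (120 of 4943) and 2.50% (93 of 3719).

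The Cd8b1 kind made up a larger share of cycling cells in the anti-PD1 than in the anti-IgG library. Kinds were read from the UMIs of a cell in this order: Trdv4 or Trgv6, receptor segments of gamma-delta T cells, then Foxp3, the master factor of regulatory T cells, then both Cd4 and Cd8b1, then Cd8b1 alone, the coreceptor chain of cytotoxic T cells, then Cd4 alone, or none of the 5 genes. Cells of the Cd8b1 kind were 68 of 188 anti-PD1 cycling cells (36.2%, 29.3% to 43.5%) and 34 of 160 anti-IgG cycling cells (21.25%, 15.2% to 28.4%), a ratio of 1.70 (1.20 to 2.42). Among non-cycling cells this kind had like shares, 21.9% in anti-PD1 and 22.2% in anti-IgG hearts. Thus the Cd8b1 kind was 1.65 times as frequent among cycling as among non-cycling cells in anti-PD1 hearts (1.36 to 2.02), and 0.96 times in anti-IgG hearts (0.71 to 1.30). Thinned to 2000 UMIs, the shares among cycling cells were 35.7% and 25%, a ratio of 1.43 (1.02 to 1.99). Thinned to 1000 UMIs they were 27.3% and 19.4%, a ratio of 1.41 with an interval of 0.95 to 2.09 that included 1. Over all alternatives tried this ratio lay between 1.41 and 2.15.

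The ratios of the other kinds changed with depth. The Cd4 kind was 36 anti-PD1 (19.1%) and 43 anti-IgG cycling cells (26.9%), a ratio of 0.71 (0.48 to 1.05), against 23.6% and 33.5% of non-cycling cells. Its ratio was 0.92 (0.49 to 1.72) after thinning to 2000 UMIs and 0.34 (0.15 to 0.76) after thinning to 1000 UMIs, from 8 of 187 and 20 of 160 cells. Cycling over non-cycling cells, the Cd4 kind at 2000 UMIs had ratios of 0.54 (0.35 to 0.84) in anti-PD1 and 0.41 (0.26 to 0.64) in anti-IgG hearts. At 1000 UMIs these were 0.41 (0.21 to 0.81) and 0.77 (0.51 to 1.16). The Foxp3 kind was 20 (10.6%) and 22 cycling cells (13.75%), against 5.77% and 5.58% of non-cycling cells. After thinning to 2000 UMIs the Foxp3 share was 4.32% in anti-PD1 cycling cells, against 4.30% in non-cycling cells, and 8.75% in anti-IgG cycling cells, against 4.45%. The ratio of cycling over non-cycling cells was then 1.97 (1.16 to 3.33) in the anti-IgG library and 1.00 (0.50 to 2.01) in the anti-PD1 library. At 1000 UMIs it was 1.82 (0.90 to 3.69) and 1.12 (0.50 to 2.51), so no excess was detectable in either, and the difference between the libraries was not tested. Gamma-delta cells were 25 (13.3%) and 14 cycling cells (8.75%), close to their 13.1% and 7.79% of non-cycling cells. Cells with both Cd4 and Cd8b1 were 13 (6.91%) and 24 cycling cells (15.0%), a ratio of 0.46 (0.24 to 0.88), but only 1 and 2 such cells were left after thinning.

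**Figure D1:**
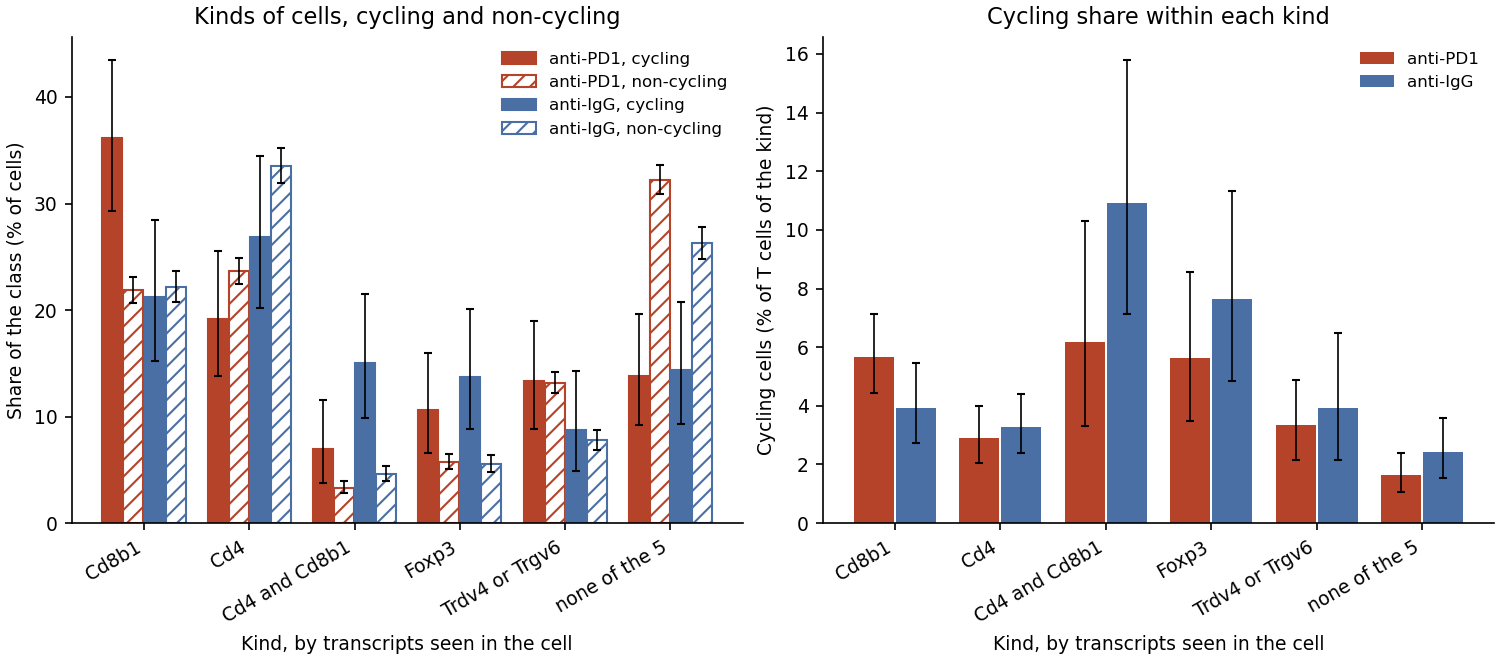
Left, the share of each kind (percent of cells) among cycling cells (filled) and non-cycling cells (hatched) of each library. Right, cycling cells as a percent of the T cells of each kind. Bars show exact 95% intervals for counting error from 1 library each. The Cd8b1 kind was 36.2% of anti-PD1 and 21.25% of anti-IgG cycling cells.

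Read the other way, as the share of each kind that cycled, the plot of cycling shares by kind shows 5.67% of the Cd8b1 kind in anti-PD1 hearts (68 of 1199) and 3.93% in anti-IgG hearts (34 of 865). That ratio was 1.44 with an interval of 0.96 to 2.16. In the Foxp3 kind the shares were 5.63% of 355 and 7.64% of 288 cells, in the Cd4 kind 2.90% of 1241 and 3.29% of 1308, and in gamma-delta cells 3.33% of 750 and 3.91% of 358. For each of these kinds the interval of the ratio included 1. Thinned to 2000 UMIs, with the cycling cells still those chosen at full depth, the Cd8b1 shares were 6.31% and 4.94%, a ratio of 1.28 (0.87 to 1.87). The Foxp3 shares were then 3.40% and 6.90%, and those of gamma-delta cells 2.92% and 4.01%. The Cd4 kind turned its order, with 2.08% and 1.83%. The intervals of these ratios again included 1. In cells with none of the 5 genes the thinned shares were 3.51% and 5.32%, a ratio of 0.66 (0.48 to 0.91). As a check on free RNA, Cd4 and Cd8b1 were each seen in 2.78% of 144 anti-PD1 and 4.92% of 61 anti-IgG B cells, at median depths of 2436.5 and 2951 UMIs. In cycling cells Cd8b1 was seen in 54.8% and 41.9% of cells and Cd4 in 35.1% and 58.1%.

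Cycling cells were spread over many receptor beta segments. A Trbv transcript was seen in 166 anti-PD1 and 151 anti-IgG cycling cells, with 21 and 20 different segments leading a cell. The most frequent, Trbv13-2, led 13.9% and 15.2% of those cells, against 11.6% and 12.7% of non-cycling cells with a Trbv transcript. No single segment dominated the dividing cells of either library. More than 1 segment was seen in 47.0% and 55.0% of these cycling cells, against 33.8% and 37.0% of non-cycling cells, at the depths given above.

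Both S and G2/M phase cells were found in each library. Each cell was scored as the difference of its mean natural log of UMIs per 10000 plus 1 from non-cycling cells, over the 42 S genes and the 51 G2/M genes, and took the phase of the higher score. S phase cells were 72 of 188 anti-PD1 (38.3%, 31.3% to 45.7%) and 67 of 160 anti-IgG cycling cells (41.9%, 34.1% to 49.9%), a ratio of 0.91 (0.71 to 1.18). The other 116 and 93 cells were called G2/M, and 11 and 9 cells lay within 0.05 of an equal score. Of the rule genes, Mki67, Top2a and Birc5 were higher in G2/M cells and Rrm2 in S cells, so the rule fixes this split in part. A phase was also given to cells with both scores near 0, such as 1 anti-PD1 cell called G2/M at 0.064 (S) and 0.065 (G2/M). A difference in phase was not detectable at these cell numbers, and thinning to 2000 UMIs gave 36.2% and 38.75% in S phase. By kind, in the Cd8b1 kind 48.5% of anti-PD1 and 52.9% of anti-IgG cells were in S phase, and in the Foxp3 kind 15.0% of 20 and 27.3% of 22 cells, with wide intervals of 3.21% to 37.9% and 10.7% to 50.2%.

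**Figure D2:**
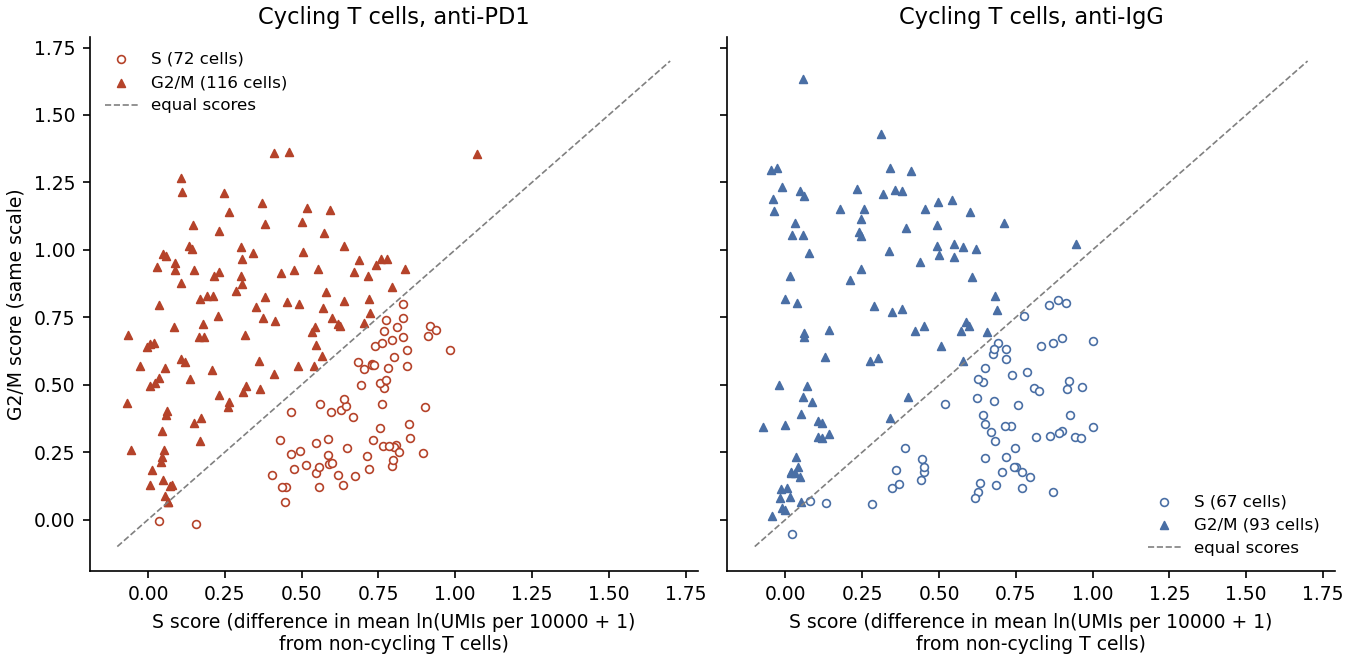
Each point is a cycling cell, with its S score (x axis) and G2/M score (y axis), both as the difference in mean ln(UMIs per 10000 + 1) from non-cycling T cells, in anti-PD1 (left, 188 cells) and anti-IgG hearts (right, 160 cells). Open circles below the dashed line of equal scores are S cells (72 and 67) and triangles above it are G2/M cells (116 and 93).

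Genes that the scores used describe the 2 phases and are given without a test. Pcna, the sliding clamp of DNA polymerase, had 416 CPM in S and 183 in G2/M cells of anti-PD1 hearts, and 382 and 134 in those of anti-IgG hearts. Cdc20, an activator of the anaphase promoting complex, had 26.4 CPM in S and 173 in G2/M cells of anti-PD1 hearts, and 34.6 and 223 in those of anti-IgG hearts. Both genes had the same order of phases in each library, which the scores fix in part. Ccne1, the cyclin of S phase entry, had 43.6 and 10.4 CPM in anti-PD1 cells and 63.2 and 12.6 CPM in anti-IgG cells, S phase first. Cenpf, a kinetochore protein, had 43.6 and 304 CPM in anti-PD1 cells and 47.7 and 414 CPM in anti-IgG cells, again S phase first. Of the genes of the membership rule, Rrm2 was higher in S cells (385 against 335 CPM in anti-PD1, 422 against 275 CPM in anti-IgG), and Mki67 was higher in G2/M cells (1228 against 734 CPM, and 1326 against 701 CPM).

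Replication-dependent histones, which package new DNA, were spread over the cells in a different way in each library. Their summed level was close, at 5673 CPM in anti-PD1 and 5919 CPM in anti-IgG cycling cells. The median cell, however, had 49.3 histone UMIs per 10000 UMIs in anti-PD1 and 18.95 in anti-IgG hearts, while the upper quartile was 98.0 and 104 and the 90th percentile 131 and 185. In anti-IgG hearts the histone UMIs thus lay more in the upper cells, with 44.2% in the top 16 of 160 cells, against 36.0% in the top 19 of 188 anti-PD1 cells. Without the mixed cells the medians were 57.4 and 20.02. By phase, the median was 39.4 in S and 58.8 in G2/M cells of anti-PD1 hearts, and 15.4 and 21.2 in those of anti-IgG hearts. By the median, cells called G2/M thus held more of these transcripts than cells called S, although new DNA is made in S phase. The 90th percentile had this order in anti-PD1 hearts (106 in S and 156 in G2/M cells), but not in anti-IgG hearts (198 and 180). The median of the core histones, which leave out the linker histones, was 9.08 and 8.91 in anti-IgG hearts. Summed over the cells, all histones had 57.3 and 60.5 UMIs per 10000 there. The reason was not tested. By gene, H3c3 had 48.7 CPM in anti-PD1 and 183 CPM in anti-IgG cells, a ratio of 0.27 (0.21 to 0.33), and H2ac22 10.8 and 64.6 CPM, a ratio of 0.17. H2ac15 had the opposite order, with 171 and 76.4 CPM, a ratio of 2.24. The linker histones H1f4 (959 and 833 CPM) and H1f2 (498 and 436 CPM) differed little. Most replication-dependent histone messages are known to lack a poly(A) tail, so that a 3′ poly(A) kit sees them only in part, and how that differed between the libraries was not tested.

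Cycling cells differed from non-cycling T cells first in the genes of DNA replication and mitosis, which the membership rule fixes in part, so these values are a description. Of 5462 genes with a mean level worth at least 50 UMIs in the members of each library, 767 (14%) were at least 1.5 times higher in cycling cells of both libraries and 259 (4.74%) were at most 1/1.5 of the non-cycling level in both. The median over all these genes was 0.09 on the log2 scale in anti-PD1 and 0.11 in anti-IgG hearts, and across 5454 genes the log2 ratios of the 2 libraries had a Pearson r of 0.96. Genes are not independent replicates, so no p is given. All ratios in the next paragraphs are cycling over non-cycling CPM.

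In DNA replication, all 24 measured genes of the licensing and fork list were higher in both libraries, with median log2 ratios of 2.60 in anti-PD1 and 2.51 in anti-IgG hearts. Mcm5, a subunit of the replicative helicase, had 228 CPM in cycling and 18.4 in non-cycling anti-PD1 cells (12.4-fold), and 208 and 17.7 CPM in anti-IgG cells (11.7-fold). Pclaf, which binds the PCNA clamp, had 445 and 0.773 CPM in anti-PD1 and 440 and 0.862 CPM in anti-IgG cells. Its ratio was 576 (347 to 1033) and 511 (297 to 963), whereas Pcna itself had ratios of only 4.53 and 4.29, since non-cycling cells held 60.6 and 55.0 CPM of it. Nucleotide synthesis followed, with 14 of 17 genes higher and medians of 1.23 and 1.18, led by thymidine kinase 1, Tk1, at 79.6-fold and 57.1-fold. The deep ratios thus mark genes that resting T cells hardly hold, and the shallow ones genes that they keep on.

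In mitosis, all 19 kinetochore genes and all 23 spindle and cytokinesis genes measured were higher in both libraries, with medians of 5.82 and 6.23 for the kinetochore and 5.33 and 5.09 for the spindle in anti-PD1 and anti-IgG hearts. Hmmr, a spindle-associated hyaluronan receptor, had 211 UMIs in cycling and 3 in non-cycling anti-PD1 cells, and 233 and 2 in anti-IgG cells. Its ratios were 615 (208 to 3005) and 866 (237 to 7194). Esco2, which acetylates cohesin on replicating DNA, had the highest ratio in anti-PD1 cells among genes with a UMI in non-cycling cells, at 1626 (288 to 64555) from 186 UMIs against 1, and 606 (165 to 5045) in anti-IgG cells from 163 against 2. With so few UMIs in resting cells, the order among these genes is not fixed beyond counting error. Ccna2, cyclin A2, had 225 and 0.464 CPM in anti-PD1 and 201 and 0.530 CPM in anti-IgG cells (485-fold and 379-fold). Cenpf, Bub1 (a checkpoint kinase), Ccnb2, the kinesins Kif18b, Kif14 and Kif4, Aspm of the spindle pole, the mitotic kinase Pbk, Ska1 of the kinetochore and the histone gene H2ac4 were also among the 20 highest, with ratios between 184 and 865. Pimreg, Kif2c, Mxd3, Nuf2, H3c3 and H2ac10 completed them, and these had 0 UMIs in anti-PD1 non-cycling cells.

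The regulators of the cycle showed both sides. Of 8 E2F and MuvB genes 6 were higher, among them E2f8, a late repressor of E2F targets (123-fold and 273-fold), and Foxm1 (25.5-fold and 33.6-fold). The D cyclins, which act before S phase, stood apart from the mitotic ones: Ccnd3 had ratios of 1.19 and 1.08, and Ccnd2 of 0.57 and 0.80. Among 12 inhibitors 3 were higher in both libraries, Cdkn2c (7.38-fold and 6.30-fold), the pocket protein gene Rbl1 (3.83-fold and 2.75-fold) and Rb1 (1.53-fold and 1.59-fold). The antiproliferative genes Btg1 (0.51 and 0.42) and Btg2 (0.62 and 0.51) were the 2 that were lower. Cdkn1b, the p27 inhibitor of resting cells, had 204 and 283 CPM in anti-PD1 cycling and non-cycling cells, and 205 and 339 CPM in anti-IgG cells, ratios of 0.72 and 0.60.

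Outside the cycle genes, the main feature of cycling cells was a low level of quiescence and naive genes. Of 19 measured, 16 were lower in both libraries and 0 higher, with medians of -1.03 and -1.28, against 4.74% of all genes lower. Il7r, the interleukin 7 receptor of resting cells, had 275 CPM in cycling and 750 in non-cycling anti-PD1 cells, and 388 and 935 CPM in anti-IgG cells, ratios of 0.37 and 0.41. Lef1, a factor of naive T cells, had ratios of 0.40 and 0.35, and Satb1, a chromatin organiser, had 0.37 in both. Ccr7, which guides T cells to lymph nodes, had 260 and 645 CPM in anti-PD1 cells, a ratio of 0.40 (0.37 to 0.44), and 91.7 and 393 CPM in anti-IgG cells, a ratio of 0.23 (0.20 to 0.27). Bach2 (0.35 and 0.28), Igfbp4 (0.25 and 0.28), Tcp11l2 (0.22 and 0.30), Il6ra (0.38 in both), Slc49a4 (0.33 in both), Thada, Gm20186 and Gm20400 were the others of the 12 lowest. The naive program was thus low in dividing cells of both libraries, with a higher Ccr7 level in anti-PD1 than in anti-IgG dividing cells.

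Of 18 T cell identity genes 0 were higher in both libraries. Metabolic lists were mixed: 5 of 12 glycolysis genes and 7 of 19 oxidative phosphorylation genes were higher in both libraries, with Gapdh at 2.03-fold and 2.33-fold, and 2 of 19 genes of the MYC and ribosome biogenesis list. Of 16 cytotoxic genes 5 were higher. Gzmb, granzyme B, had 337 CPM in cycling and 96.6 in non-cycling anti-PD1 cells (3.49-fold), and 375 and 57.4 CPM in anti-IgG cells (6.53-fold, with 291 of 761 UMIs in 1 cell). Klrg1, a receptor of effector cells, had ratios of 2.38 and 3.76, and Gzma of 2.69 and 4.72. The checkpoint list hardly differed by class: Pdcd1 had 161 and 182 CPM in anti-PD1 cycling and non-cycling cells, and 111 and 114 CPM in anti-IgG cells.

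**Figure D3:**
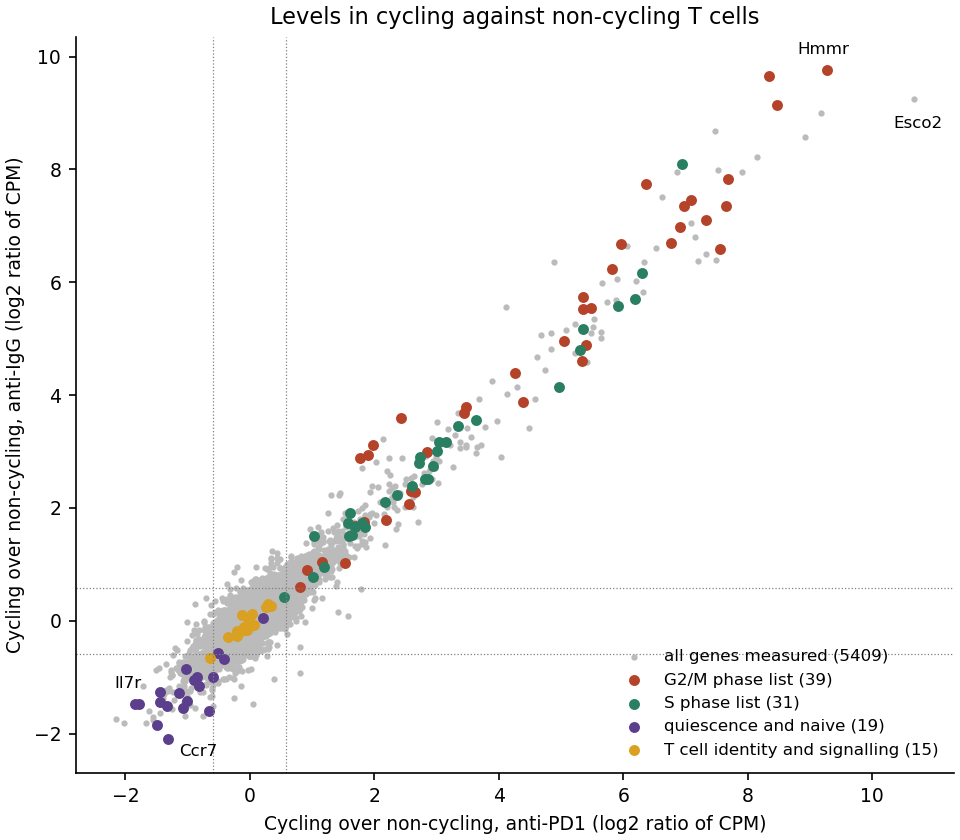
Each point is a gene (5409 genes with UMIs in every class, receptor and immunoglobulin genes left out), with the log2 ratio of CPM in cycling over non-cycling T cells in anti-PD1 (x axis) and anti-IgG hearts (y axis). Dotted lines mark 1.5 times higher or lower. G2/M and S genes lie at the upper right, quiescence genes such as Il7r and Ccr7 at the lower left, and T cell identity genes near 0.

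Between the antibodies, cycling cells of anti-PD1 hearts had higher early response transcripts and nearly equal cell cycle transcripts. Of 7930 genes with at least 50 UMIs summed over the members, 445 (5.61%) were at least 1.5 times higher in anti-PD1 than in anti-IgG cycling cells and 675 (8.51%) were at most 1/1.5. The median log2 ratio was -0.08. In non-cycling cells of the same libraries, 4.8% of these genes were higher and 5.71% lower, with the same median of -0.08. Of the genes past the limit, 230 were higher in both classes, which is 51.7% of those in cycling and 60.4% of those in non-cycling cells, and 211 were lower in both (31.3% and 46.6%).

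The levels of cell cycle genes were close between the libraries. The same limit on proliferation transcripts chose the members of both, which fixes these levels in part, so the values are a description. Of 42 S genes 0 were higher and 4 lower in anti-PD1 hearts (median log2 ratio 0.07), and of 50 G2/M genes 2 were higher and 1 lower (median 0.04). The kinetochore and spindle lists had 1 of 26 and 0 of 28 genes higher, and 0 and 2 lower. These shares are near or below those over all genes. Ccnb1 had 94 UMIs (42.3 CPM) in anti-PD1 and 119 UMIs (58.7 CPM) in anti-IgG cells, a ratio of 0.72 (0.54 to 0.95). Cdkn1a, the p21 inhibitor that p53 and receptor signals induce, was the inhibitor with the highest ratio: it had 142 CPM in anti-PD1 and 40.9 CPM in anti-IgG cycling cells, a ratio of 3.47 (2.72 to 4.47), and was seen in 92 of 188 and 45 of 160 cells. In non-cycling cells its ratio was 2.83. Of the inhibitors, Tob1 (2.05) and Btg1 (1.56), were also past the limit, and Cdkn1b was not (0.99).

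Early response genes formed the clearest group. Of 16 measured, 12 were at least 1.5 times higher and 0 lower, with a median log2 ratio of 1.24 in cycling and 0.67 in non-cycling cells. Without the mixed cells, 10 of 15 were higher and 1 was lower, with a median of 1.35. Nr4a1, a nuclear receptor induced by T cell receptor signals, had 549 CPM in anti-PD1 and 84.8 CPM in anti-IgG cycling cells, a ratio of 6.47 (5.51 to 7.64), and was seen in 156 of 188 and 56 of 160 cells. Its relatives Nr4a2 (161 and 27.6 CPM, ratio 5.84) and Nr4a3 (222 and 37.0 CPM, ratio 6.01) and the AP-1 subunit gene Fosl2 (153 and 25.1 CPM, ratio 6.09) gave nearly the same values. These genes were seen in many cells of anti-PD1 hearts, and their ratios in non-cycling cells were also high, 4.80 for Nr4a1, 4.46 for Nr4a2, 5.29 for Nr4a3 and 4.96 for Fosl2. The list did not move as 1: Fos (0.98) and Jun (0.72) were not higher. Some of these genes are also known to be induced by tissue digestion. The 9 heat shock genes had a median log2 ratio of 0.29 in cycling and 0.08 in non-cycling cells. Only 1 of them, Dnajb1 at 1.61, was past the limit in cycling cells. The part of this in the early response values was not tested.

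Others of the 12 highest genes rested on few cells or on mixed cells. Areg, the growth factor amphiregulin of tissue repair, had 262 UMIs (118 CPM) in 28 anti-PD1 cells, of which 1 cell held 96, and 17 UMIs (8.38 CPM) in 9 anti-IgG cells, a ratio of 14.1 (8.63 to 24.5). Cxcl2, a chemokine for neutrophils, had 190 and 9.86 CPM, a ratio of 19.2, against 5.89 without the mixed cells, which held 357 of its 421 anti-PD1 UMIs. All 169 anti-PD1 and 5 anti-IgG UMIs of Il1b, an inflammatory cytokine, lay in mixed cells. So did 56 of 93 anti-PD1 UMIs of Plaur, the urokinase receptor. These 4 values thus describe few cells. Kdm6b, a histone demethylase (152 and 35.0 CPM, ratio 4.35), Vps37b, of the ESCRT-I sorting complex (495 and 113 CPM, ratio 4.39), Ier5l (6.65) and Rgs16, a regulator of G protein signals (5.70), completed the 12.

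The 12 lowest genes in anti-PD1 cycling cells included 2 histones, the homing receptor Ccr9 and values that rest on 1 cell. Gzmc, granzyme C, had 2.25 CPM in anti-PD1 and 60.6 CPM in anti-IgG cells, but 118 of its 123 anti-IgG UMIs lay in 1 cell. Ccr9, the receptor that guides T cells to the gut, had 8.11 and 44.4 CPM, in 9 and 20 cells, a ratio of 0.18 (0.10 to 0.31). Irf2bp2, a transcriptional corepressor, had 59.5 and 156 CPM, in 78 and 115 cells, a ratio of 0.38 (0.31 to 0.47). Ccr9 and Irf2bp2 were thus spread over several cells, unlike Gzmc. Mrc1 (0.28) and Fcrls (0.35) are macrophage genes whose UMIs all lay in mixed cells. H2ac22 and H3c3 are given above, and Nxpe3 (0.35), Trim14 (0.38), Pik3ip1, a brake on PI3 kinase (0.40), Trat1 (0.41) and P2rx7, an ATP-gated channel (0.41), were the others. In the homing list 5 of 18 genes were lower, Ccr9, Ccr4, Cxcr3, Itga4 and Itgae, and 2 were higher, Ccr7 (2.84) and Cxcr4 (2.35). Cxcr3, which guides T cells to inflamed tissue, had 264 anti-PD1 and 418 anti-IgG UMIs, a ratio of 0.58.

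Some checkpoint and cytotoxic genes were higher in anti-PD1 cycling cells, while most genes of either list did not pass the limit. Of 15 checkpoint genes 7 were higher and 0 lower (median log2 0.58, and 0.54 in non-cycling cells), of which 3 were the Nr4a genes just given. Pdcd1, the target of the antibody, had 161 CPM in anti-PD1 and 111 CPM in anti-IgG cells, a ratio of 1.45 (1.23 to 1.73), and was seen in 82 of 188 and 61 of 160 cells. With every cell weighted alike its ratio was 0.98, so that its value depends on how cells are weighted. Ctla4, an inhibitory receptor, had 275 and 180 CPM (1.53), and Tigit 133 and 86.3 CPM (1.54). Tox, a factor of exhausted T cells, had 69.8 and 46.8 CPM (1.49), and Lag3 and Havcr2 had only 22 and 35 anti-PD1 UMIs, against 17 and 20 anti-IgG UMIs. Of 19 cytotoxic genes 9 were higher and 0 lower (median log2 0.42, against 0.15 in non-cycling cells). Among them Serpinb9, the granzyme B inhibitor, had 125 and 48.3 CPM (2.59), in 91 and 49 cells. Gzmb itself had a ratio of 0.90, and 1.39 with every cell weighted alike.

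Activation, helper and interferon genes were mixed. Tnfrsf9, the costimulatory receptor 4-1BB, had 116 CPM in anti-PD1 and 50.8 CPM in anti-IgG cells (2.28), and Nfkbia, the NF-kB inhibitor, 931 and 399 CPM (2.33). Il2ra, the high-affinity interleukin 2 receptor chain, had 55.0 and 76.9 CPM, a ratio of 0.71 (0.56 to 0.91), whereas in non-cycling cells its ratio was 1.55. Foxp3 had a ratio of 0.74 in cycling and 1.16 in non-cycling cells. The ratios in cycling cells turned under some alternatives, to 1.09 and 1.10 for Il2ra and 1.00 for Foxp3. Of 19 genes of the activation list 5 were higher past the limit in cycling cells and 1 was lower, against 5.61% and 8.51% of all genes. The median log2 ratio of this list was 0.09 in cycling and 0.30 in non-cycling cells. Il17a, the cytokine of type 17 cells, had 120 and 40.9 CPM (2.94), in 20 and 10 cells. Of 22 interferon genes 0 were higher and 6 lower, with a median log2 ratio of -0.27, and -0.67 in non-cycling cells. Bcl2, a survival factor, had 75.7 and 159 CPM (0.48).

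**Figure D4:**
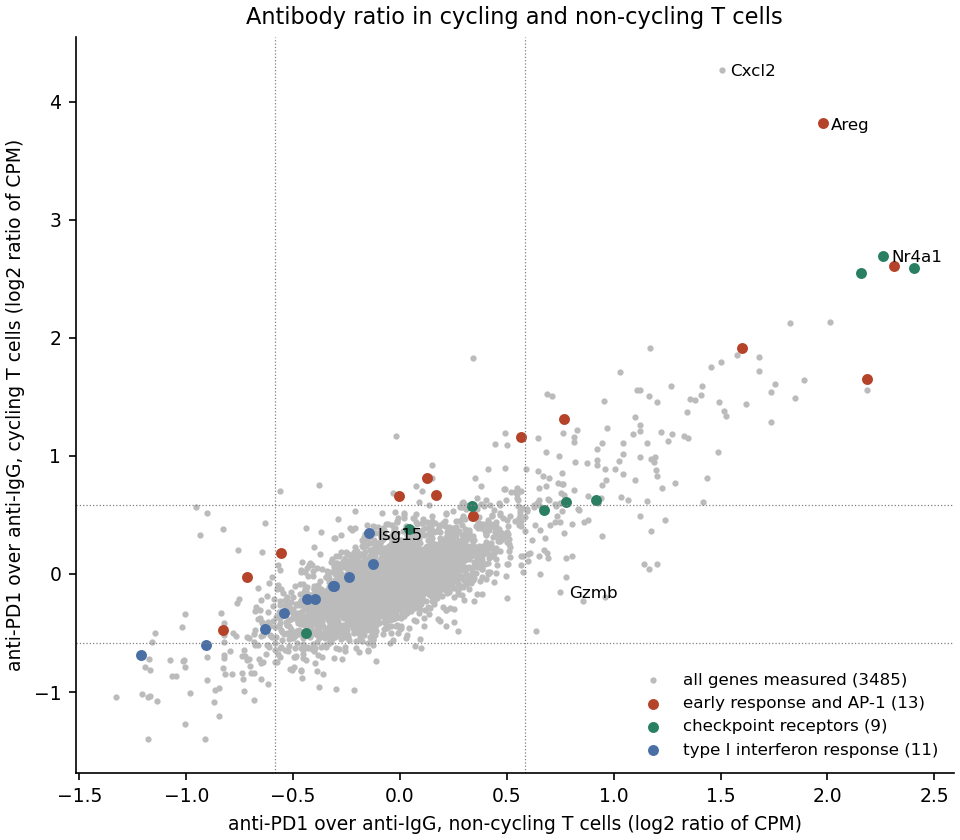
Each point is a gene (3485 genes, receptor and immunoglobulin genes left out), with the log2 ratio of CPM in anti-PD1 over anti-IgG hearts in non-cycling (x axis) and cycling T cells (y axis). Dotted lines mark 1.5 times higher or lower. Cxcl2 and Areg lie highest, followed by Nr4a1, Fosl2, Nr4a3 and Nr4a2, early response genes lie mostly above 0 on both axes, and interferon genes mostly below 0.

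Set against the antibody ratio in non-cycling cells, the ratio in cycling cells was mostly of the same order. Of 5723 genes with at least 100 UMIs in each class, the ratio in cycling cells was at least 1.5 times that in non-cycling cells for 115 and at most 1/1.5 of it for 107. The intervals of the 2 ratios did not overlap for 380 genes, 183 higher and 197 lower in cycling cells. Cd8b1 itself was among the genes whose direction differed, with 432 CPM in anti-PD1 and 335 CPM in anti-IgG cycling cells (1.29, 1.17 to 1.43), against 282 and 330 CPM in non-cycling cells (0.86). The counts of the Cd8b1 kind given above were made from the same UMIs. The heat shock gene Hspa1b had ratios of 1.48 in cycling and 0.52 in non-cycling cells, and Hspa1a of 1.43 and 0.53. Whether any of these differences between classes is more than library variation was not tested.

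Within the Cd8b1 kind, dividing cells of anti-PD1 hearts held more Pdcd1 and Ctla4 transcripts than resting cells of the same kind, and the granzyme ratios were above 1 in both libraries and higher in anti-IgG hearts. Pdcd1 had 172 CPM in cycling and 63.6 CPM in non-cycling anti-PD1 cells, a ratio of 2.70 (2.18 to 3.33), in 26 of 68 cycling cells, and 2.25 without the cell with most UMIs. In anti-IgG cells it had 38 and 47.8 CPM, a ratio of 0.80 (0.44 to 1.35), in 5 of 34 cells. Ctla4 had ratios of 2.11 in anti-PD1 and 1.14 in anti-IgG cells, and Cdkn1a of 2.53 and 0.71. In anti-IgG cells Cdkn1a had only 6 UMIs in 3 cycling cells, 4 of them in 1 cell. Its ratio there had an interval of 0.25 to 1.61 and was 0.26 without that cell, so its order against resting cells is not settled. Without the mixed cells the Cdkn1a ratios were 3.15 and 2.61. Those of Pdcd1 (2.57 and 0.77) and Ctla4 (1.98 and 1.15) changed little. The anti-IgG values of these 3 genes rest on 17 or fewer UMIs. Of the other checkpoint genes, Tigit (1.16, 0.95 to 1.41), Tox (1.28, 0.94 to 1.72), Lag3 (1.56, 0.78 to 2.90) and Havcr2 (1.85, 0.77 to 3.97) had intervals in anti-PD1 cells that included 1. Gzmb had 246 and 173 CPM in anti-PD1 cells (1.42), and 730 and 83.3 CPM in anti-IgG cells (8.76, or 4.71 without 1 cell that held 146 of 288 UMIs). Gzma likewise had ratios of 2.02 and 5.35, or 1.37 and 3.03 without the cell with most UMIs. The difference between the libraries in these ratios was not tested.

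Naive genes were low in dividing Cd8b1 cells of both libraries, and lower in those of anti-IgG hearts. Ccr7 had 258 CPM in cycling and 895 in non-cycling anti-PD1 cells (0.29, 0.25 to 0.33), and 40.5 and 566 CPM in anti-IgG cells (0.07, 0.04 to 0.12). Tcf7, a factor of naive and memory-like cells, had 304 and 435 CPM in anti-PD1 cells (0.70), and 238 and 585 CPM in anti-IgG cells (0.41). Klf2 had ratios of 0.45 and 0.23. Il7r alone of these was equally low, with 0.26 and 0.25. Dividing Cd8b1 cells of anti-PD1 hearts thus kept more Ccr7, Tcf7 and Klf2 transcripts relative to resting cells than those of anti-IgG hearts, in 1 library each.

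**Figure D5:**
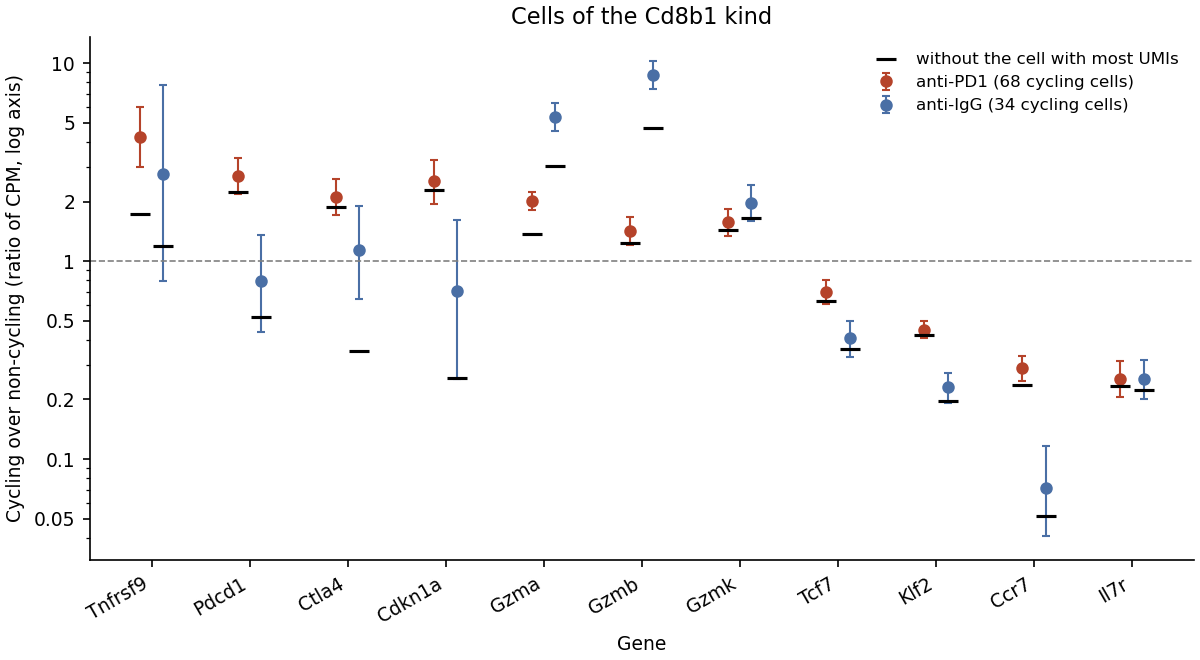
Ratio of CPM in cycling over non-cycling cells of the Cd8b1 kind (log axis) for 11 genes, in anti-PD1 (68 cycling cells) and anti-IgG hearts (34 cycling cells). Points are ratios with exact 95% intervals for counting error, and dashes give the ratio without the cycling cell with most UMIs of the gene. Pdcd1 was at 2.70 and 0.80, and Gzmb at 1.42 and 8.76. Mixed cells are included, and without them Cdkn1a was at 3.15 and 2.61, against 2.53 and 0.71 with them. With them, its anti-IgG value rests on only 6 UMIs in 3 cycling cells.

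Dividing cells of the other kinds differed from their resting counterparts in other ways. In the Cd4 kind, Cxcr3 had 198 CPM in cycling and 89.0 in non-cycling anti-PD1 cells (2.22), and 381 and 199 CPM in anti-IgG cells (1.92). Cd44, the adhesion receptor of antigen-experienced cells, had ratios of 1.74 and 1.96, and Nkg7, a granule protein, of 2.06 and 1.80. Dividing Cd4 cells thus had more transcript of these genes in both libraries, while Pdcd1 was near the resting level (0.89 and 1.11). Other effector genes of this kind went both ways. Ifng had ratios of 3.23 and 2.04, whereas Gzmk had 0.36 and 1.15, Gzmb 1.80 and 0.66, and the chemokine gene Ccl5 0.63 and 1.04. Gzma had 0 UMIs in anti-PD1 dividing cells, and 8 UMIs, all in 1 cell, in anti-IgG ones. In gamma-delta cells some effector genes were lower and others higher in dividing cells. Il17a had 512 and 1061 CPM in anti-PD1 cycling and non-cycling cells (0.48, 0.41 to 0.56), and 311 and 838 CPM in anti-IgG cells (0.37, 0.28 to 0.48). Pdcd1 (0.49 and 0.45), Cxcr6, a tissue homing receptor (0.54 and 0.50), and Il7r (0.44 and 0.53) were likewise lower in dividing gamma-delta cells. Nkg7 was higher (3.15 and 1.41, or 2.65 and 1.04 without the cell with most UMIs), and Gzmb had ratios of 2.93 and 0.48, the anti-IgG one from 4 UMIs. These values rest on 25 anti-PD1 and 14 anti-IgG cells, and 1 UMI of Trdv4 or Trgv6 was enough for this kind. Over all cycling against all non-cycling T cells, Trdv4 had ratios of 0.56 and 0.40, and Trgv6 of 0.51 and 0.39. The kind itself had like shares of both classes. Whether the dividing cells of this kind include other T cells was not tested.

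In the Foxp3 kind, 20 anti-PD1 and 22 anti-IgG dividing cells held less Ctla4 than resting cells, with 907 and 1119 CPM in anti-PD1 cycling and non-cycling cells (0.81, 0.71 to 0.92), and 692 and 903 CPM in anti-IgG cells (0.77, 0.66 to 0.89). Without the cell with most UMIs the ratios were 0.61 and 0.65, and without the mixed cells 0.91 and 0.69. For this kind 1 UMI of Foxp3 was enough, and thinned to 2000 UMIs it held only 8 and 14 cycling cells. Icos, a costimulatory receptor, had ratios of 0.61 and 0.78. Il2ra had 135 and 288 CPM in anti-PD1 cells (0.47, 0.33 to 0.64), and 376 and 308 CPM in anti-IgG cells (1.22, 0.98 to 1.51). Gzmb had ratios of 3.31 and 1.03, or 2.53 and 0.81 without the cell with most UMIs. Areg was present in dividing anti-PD1 cells at 631 CPM, against 581 CPM in resting ones, and 1 cell held 96 of its 201 UMIs. In anti-IgG cells Areg had 39.5 and 280 CPM.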

How the data were processed

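Single-cell RNA was measured in 2 libraries, 1 from anti-PD1 and 1 from anti-IgG hearts, grouped by the treatment label. The authors deposited whole-number UMI counts for each gene in each barcode, without normalization. Cell Ranger 7.1.0 wrote them, per the file headers. Per the submitters' processing notes the build was mm10 and the tools were Seurat 4.4.0 and Cell Ranger 7.2.0. The barcodes had already been limited to called cells, 6026 with 29046341 UMIs (anti-PD1) and 4380 with 22806806 UMIs (anti-IgG), of which 5835 and 4309 passed the limits on genes, UMIs and mitochondrial share.

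For each library and class of cells the UMIs of a gene were added up and scaled to CPM. Ratios of CPM have exact 95% intervals conditional on the summed UMIs, shares exact Clopper-Pearson intervals, and ratios of shares Katz log intervals. All cover counting error only, and those of gene ratios take each UMI as independent, which makes them too narrow where few cells hold most UMIs. Cells were not used as replicates and no p was computed. Scrublet (in scanpy 1.11.5) marked 0 cells by its automatic threshold, which is therefore taken as not having worked, and its 272 and 149 highest scores were left out as an alternative. Thinning to 2000 UMIs left out 3 anti-PD1 and 0 anti-IgG cycling and 398 and 255 non-cycling cells. Python 3.11.15, numpy 2.4.6, scipy 1.17.1, pandas 2.3.3 and matplotlib 3.10.9 were used, and the ratios and list counts were tested on simulated data.

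The members, the 28 gene lists and the rules were chosen with earlier results of these data known. Genes were named as the 20 highest and 12 lowest ratios of cycling over non-cycling cells by the weaker library with at least 50 UMIs in each, the 12 highest and 12 lowest antibody ratios past 1.5 times with at least 100 UMIs and an interval without 1, the 2 highest and 2 lowest of each list, and a set of T cell genes. Other genes named within lists, and those within kinds, were picked after their values were seen. Cycling cells are a class within each library, so a share of cells and RNA per cell are separate values here, but the number of T cells per heart was not measured. The alternatives covered the limits on proliferation, Cd3, mitochondrial and gene counts, doublet scores, transcripts of other cell types, thinning, the kind mix, the totals and the weight of cells. Members with at least 10 UMIs of macrophage, B cell or endothelial genes were left out as an alternative chosen after seeing the data. Some genes of the lists are not reported here.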

Additional observations from a re-analysis of the deposited data

Results flagged for a closer look

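Sparc, a matrix protein gene of stroma and vessels, had an anti-PD1 over anti-IgG ratio of 1.67 in cycling T cells, against 0.50 in non-cycling T cells, so the 2 classes lay on opposite sides of 1. In cycling cells its 113 anti-PD1 UMIs lay in 5 cells, 95 of them in 1 cell, and its 62 anti-IgG UMIs in 4 cells, 55 of them in 1 cell. All of these were mixed cells. In gamma-delta cells, Ccl5, a chemokine of effector T cells, had a ratio of cycling over non-cycling cells of 0.65 in anti-PD1 hearts (181 UMIs in 10 cells) and 2.05 in anti-IgG hearts (164 UMIs in 6 cells, 1.35 without the cell with most UMIs). In the Foxp3 kind, Ly6c2, a surface protein of effector T cells and monocytes, had such a ratio of 3.77 in anti-PD1 hearts (248 UMIs in 14 cells) and 0.22 in anti-IgG hearts (22 UMIs in 5 cells). Each of these was singled out because the 2 groups lay on opposite sides of 1, past 1.5 times either way with counting intervals that left out 1. With 1 library per antibody these differences were not tested.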

How the results depend on the processing

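No paired analysis was possible because each antibody is 1 library and the labels give no replicate numbers that the groups share. For the same reason no replicate could be left out. Of the alternatives, 207 values of shares and gene counts stayed within their counting interval or 1.5 times the count, and 20 moved. In what follows the value as reported stands in brackets. Leaving out cells with at least 2 UMIs of other cell types' markers kept 43 anti-PD1 and 41 anti-IgG members. The anti-PD1 over anti-IgG ratios were then 0.67 for the cycling share (0.88), 0.44 for the share of the Cd4 kind that cycled (0.88), and 0.48 (0.71), 2.86 (1.52) and 0.95 (0.46) for the shares of the Cd4 kind, the gamma-delta kind and cells with both Cd4 and Cd8b1 among members. The gene counts were then 190 higher (767) and 128 lower (259) in cycling cells, 292 higher (445) and 269 lower (675) for the antibody, and 787 (115) and 707 (107) for the ratio between classes. Thinning to 1000 UMIs gave 0.46 for the Cd4 share that cycled and 0.34 for the Cd4 share among members. With at least 2 proliferation UMIs 137 genes were lower (259) and 52 had a lower ratio between classes (107). Without the mixed cells that last count was 181. With each cell weighted alike the counts between classes were 183 (115) and 189 (107). Totals without ribosomal and mitochondrial genes gave 556 genes lower (259), since they set the median log2 ratio of cycling over non-cycling cells to -0.08 in anti-PD1 and -0.07 in anti-IgG hearts (0.09 and 0.11). Among genes with at least 200 UMIs 18 list genes were lower for the antibody (42), and the median log2 ratio of the histone list was 0.08 (-0.38), and 0.38 with the 43 and 41 cells. Of the values of single genes and lists 2656 stayed within their counting interval or, for the median of a list, within 0.1 on the log2 scale, and 542 moved beyond it. A further 33 gene values changed direction, in the anti-PD1 library unless said. With at least 8 proliferation UMIs these were Fcrls 0.93 in cycling over non-cycling cells and, for the antibody, Foxp3 1.00 and Il2ra 1.09. With at least 2, cycling over non-cycling was 1.57 for Ccr9 and 1.03 for Pdcd1, and in anti-IgG hearts 1.00 for Cd3g and 1.05 for Tox. With the 43 and 41 cells it was 0 for Il1b, 0.65 for Cxcl2, 0.81 for Areg, 1.10 for Trim14, 1.21 for Irf2bp2, 1.34 for Trdv4, 1.01 for Trgv6, 1.02 for Pdcd1, 0 for Fcrls in both libraries, and in anti-IgG hearts 0.60 for Ccr9 and 1.02 for Cd4, while the antibody ratio was 1.10 for Il2ra and 1.06 for Ccnb1. Without the mixed cells it was 0 for Il1b, 0 for Fcrls in both libraries and 0 for Mrc1 in anti-IgG hearts. At an equal kind mix it was 0.85 for Areg, and in anti-IgG hearts 1.00 for Mrc1, 0.70 for Foxp3 and 0.90 for Ctla4. Totals without ribosomal genes gave 0.99 for Nr4a1. With each cell weighted alike it was 0.98 for Areg, and the antibody ratio was 0.98 for Pdcd1 and 1.39 for Gzmb. The causes were not tested.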
